A study of Mus musculus with 40 samples.

Results

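Ubiquitin is a small protein that is joined to other proteins by a chain of enzymes. An E1 enzyme activates it, an E2 conjugase carries it, and an E3 ligase chooses the substrate, while proteases of the Usp type take it off again. Cullins are scaffolds of multi-subunit ligases in which an F-box protein (with Cul1) or another receptor holds the substrate, whereas most Rnf and Trim proteins bind the E2 directly through a RING domain. In dividing cells such enzymes time the loss of cyclins and the repair of stalled replication forks. In infected or inflamed tissue several Trim and Rnf proteins tune the sensing of nucleic acids.

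The genes described here are the entries whose symbol begins with Ube2 followed by a letter, Ube3, Ube4, or Trim, Rnf, Usp, Fbxl, Fbxo, Fbxw or Cul followed by a number, without Usp18. They were 225 of the 11119 entries measured. By symbol the set held 30 Ube2, 5 Ube3 and Ube4, 43 Trim, 55 Rnf, 42 Usp, 43 F-box and 7 Cul genes. A symbol does not prove a function: Usp6nl matched the rule although it encodes a Rab GTPase-activating protein and no protease, and Ube2v1 and Ube2v2 are E2 variants without a catalytic cysteine. Of the 225 entries, 7 join overlapping genes (Fbxo22--Nrg4, for example), and their reads cannot be assigned to 1 of the genes. Trim12a, Trim12c, Trim30a, Trim30d and Trim34a lie in 1 cluster of near copies on chromosome 7, so reads may be shared among them.

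RNA levels were measured in mouse liver before (0 h) and 48 h or 72 h after partial hepatectomy, the surgical removal of part of the liver that makes the rest regrow. The mice were aged 3 months or 12 months, and ATRi, an inhibitor of the ATR kinase that responds to stalled replication forks, was given to some groups at 24 h. The 9 groups were untreated livers of 3-month mice at 0 h (7 mice), 48 h (3) and 72 h (4), ATRi livers of 3-month mice at 72 h (4), untreated livers of 12-month mice at 0 h (8), 48 h (3) and 72 h (4), and ATRi livers of 12-month mice at 48 h (3) and 72 h (4), 40 samples in all. The labels give neither strain nor sex, and all groups other than 0 h share the operation. No genotype is stated, but mice Mwt1, Mwt2 and Mwt3 of the 3-month 0 h group carry wt in their names, unlike all other samples. By their numbers in the labels, the 8 mice of the 12-month 0 h group were those of both 72 h groups of that age, and 4 of the 3-month mice were likewise used at both 0 h and 72 h.

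Each table gave log2 levels of a quantity the authors call sigma, which the sources used here do not define; a difference of 1 is a 2-fold ratio of that quantity. Whether it is scaled per gene length is not known, so levels of different genes are not read as relative amounts. Levels were used across genes to choose the highest member of each family, to filter by level and to sum over marker lists. In such sums the weight of each gene may depend on its length. For 8 groups only the mean was available, so in 11 comparisons members were counted where means lay at least 1 apart, with no test. For the ATRi livers of 12-month mice at 72 h the 4 single livers (mice M545 to M548) were available too, and 4 comparisons with that group were tested with limma over all 11119 entries. In these tests the spread of the other group is not measured and is taken to be that of the 4 ATRi livers. For the test the 4 livers of each gene were shifted to the deposited mean, which was above the mean of their log2 values (median 0.11 over the members, from -0.19 to 0.55), whereas levels of single livers are printed as deposited. Read depth is unknown. The labels call the cells hepatocytes. All 9 measured hepatocyte markers of 10 listed had mean levels over 1, and their summed level was between 15.22 and 16.28 in every group, while markers of macrophages (9 of 13 measured, 7.72 to 9.70) and endothelium (10 of 11, 6.64 to 7.47) were also present. These markers do not settle whether whole tissue or isolated cells were used. In RNA of mixed cells, fewer cells of a type and less RNA per cell cannot be told apart.

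Members of 2 kinds are shown by their promoters: genes of cell division that were high at 48 h, and Trim genes of the cluster on chromosome 7. Of the latter, Trim30a and Trim30d had their 2 highest means at 72 h in old livers. Trim12c was highest there only without ATRi, and by little. The sequences are from RefSeq on GRCm38.p6, read 5′ to 3′ on the strand of the gene and ending before the first base of its transcript. In Ube2t (chr1:134962315-134962564, plus strand) capitals mark CCAAT. In Trim59 (chr3:69044756-69044992, minus strand) both stretches in capitals are printed as the reverse complement of the motif, the first of TTTGAA and the last of the same box as in Ube2t. TTTGAA is called the cell cycle homology region, and both it and the CCAAT box are known from promoters of mitotic genes.
Ube2t: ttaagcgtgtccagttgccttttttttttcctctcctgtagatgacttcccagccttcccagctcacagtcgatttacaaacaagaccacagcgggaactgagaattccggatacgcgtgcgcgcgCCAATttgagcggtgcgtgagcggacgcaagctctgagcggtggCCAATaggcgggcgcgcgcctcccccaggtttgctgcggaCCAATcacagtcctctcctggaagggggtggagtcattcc
Trim59: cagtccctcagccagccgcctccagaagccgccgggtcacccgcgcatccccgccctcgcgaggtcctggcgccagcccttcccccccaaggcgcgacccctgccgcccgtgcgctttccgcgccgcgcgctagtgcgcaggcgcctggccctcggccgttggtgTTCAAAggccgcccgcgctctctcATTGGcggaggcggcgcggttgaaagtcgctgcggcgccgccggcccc
In Trim30a (chr7:104465194-104465443), Trim30d (chr7:104507850-104508099) and Trim12c (chr7:104353363-104353599), all on the minus strand, capitals mark TTTC, any 2 bases and TTTC, the reverse complement of GAAA, any 2 bases and GAAA. That is the core of the interferon-stimulated response element, which interferon-activated factors bind.
Trim30a: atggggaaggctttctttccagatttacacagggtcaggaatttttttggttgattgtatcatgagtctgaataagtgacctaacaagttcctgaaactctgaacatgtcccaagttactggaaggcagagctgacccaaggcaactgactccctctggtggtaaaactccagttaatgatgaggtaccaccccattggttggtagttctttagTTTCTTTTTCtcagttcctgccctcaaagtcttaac
Trim30d: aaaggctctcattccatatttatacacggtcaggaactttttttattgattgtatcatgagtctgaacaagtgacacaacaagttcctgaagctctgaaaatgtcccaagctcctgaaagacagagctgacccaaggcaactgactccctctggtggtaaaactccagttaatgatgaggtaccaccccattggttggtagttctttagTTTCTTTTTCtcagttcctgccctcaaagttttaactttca
Trim12c: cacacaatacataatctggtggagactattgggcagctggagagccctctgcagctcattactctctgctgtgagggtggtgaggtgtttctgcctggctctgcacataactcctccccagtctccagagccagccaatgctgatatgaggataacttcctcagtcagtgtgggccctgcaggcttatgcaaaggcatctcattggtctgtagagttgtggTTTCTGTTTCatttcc

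The 3 motifs were searched on both strands in windows from 250 bases before to 50 bases after the start site, which RefSeq gave for 171 of the members. CCAAT was in 31.0% of them (53), against 37.8% of all 27025 promoters and 38.1% of the 8236 promoters of genes in the tables. TTTGAA was in 11.7% of members, 18.1% of all promoters and 12.1% of those in the tables. The response element core was in 6.4% of members (11), 3.5% of all and 3.3% of those in the tables. Among the 7 cell division members with a promoter, 5 held CCAAT: Ube2t and Fbxo5 3 times each, and Trim59, Trim37 and Fbxo30 once each. Fbxo5 and Trim59 also held TTTGAA. Among the 12 interferon and innate immunity members with a promoter, 7 held that core (Trim12a, Trim12c, Trim21, Trim26, Trim30a, Trim30d and Trim34a). In Trim12c, Trim30a and Trim30d it began 29, 36 and 41 bases before the start site. A match describes the letters and does not show that a factor binds there.

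Few members differed by 1 or more after hepatectomy. At 48 h most of those that were higher were on the cell division list. They were 6 of 7 at 3 months and 5 of 6 at 12 months, and the other was Usp2. The list was chosen with earlier results of these data known, so these shares are no independent support for a link to division. At 3 months 7 members were higher and 3 lower by 1 or more at 48 h than at 0 h (3.11% and 1.33% of members, with 3.76% and 2.67% of all entries). At 12 months 6 were higher and none lower (background 3.26% and 1.85%). All 4 shares of the members were below those of all entries. At 72 h the 3-month livers had 1 member higher and 4 lower than at 0 h (background 2.46% and 2.02%), and the 12-month livers had 7 higher and none lower (2.92% and 1.01%). The 3-month member that was higher was Ube2t (1.60), and the lower ones were Fbxl12 (-1.21), Trim65 (-1.16), Rnf135 (-1.10) and Trim39 (-1.04). At 12 months the highest were Ube2t (1.89), Rnf169 (1.74), Fbxl17 (1.22), Usp2 (1.20) and Trim59 (1.13). With differences centred on the median of all entries (-0.09), the 3-month split was 2 higher and 3 lower, and higher entries made up 68.3% rather than 54.9% of all those past 1.

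Ube2t, the E2 that attaches ubiquitin to FANCD2 in the Fanconi pathway of crosslink repair, had the largest difference in both ages. It lies on chromosome 1 from 134962565 to 134974162. Its deposited means at 3 months were 1.05 at 0 h, 3.82 at 48 h, 2.65 at 72 h and 2.80 at 72 h with ATRi. At 12 months they were 1.30 at 0 h, 3.94 at 48 h, 4.38 at 48 h with ATRi, 3.19 at 72 h and 2.24 at 72 h with ATRi. The 4 livers of that last group were at 1.68, 2.33, 1.92 and 1.99, all above both 0 h means and all below the untreated 72 h mean of their age. Ube2t fell by 0.95 between untreated and ATRi livers at 72 h and 12 months (SE 0.20, limma adjusted p = 0.0441).

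Ube2s, the E2 that lengthens ubiquitin chains for the anaphase-promoting complex, was at 1.41 and 1.40 at 0 h and at 3.08 and 3.10 at 48 h in 3-month and 12-month livers. At 72 h it was at 1.26 in 3-month and 2.33 in 12-month untreated livers, a difference of 1.07 between the ages. With ATRi at 72 h it was at 1.87 at 3 months and 1.95 at 12 months, with the 4 livers at 1.16, 1.69, 1.71 and 2.16. Fbxo5, an inhibitor of the anaphase-promoting complex also known as Emi1, was also highest at 48 h, with 1.70, 2.88 and 2.49 at 0 h, 48 h and 72 h at 3 months and 1.67, 3.07 and 2.54 at 12 months. With ATRi at 72 h it was at 2.60 at 3 months and 1.93 at 12 months. The 4 single livers of Fbxo5 ran from 1.52 to 1.87 as deposited and from 1.75 to 2.10 when shifted to their group mean, and on both scales they were below the means of all other groups after hepatectomy.

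Trim59, a membrane-bound RING ligase, was near the floor at 0 h (0.51 and 0.50) and at 3.05 in 3-month and 1.79 in 12-month livers at 48 h. That difference of -1.26 between the ages was the 1 past 1 among the members at 48 h. By 72 h Trim59 was at 0.96 at 3 months and 1.63 at 12 months. Usp1, the protease that removes ubiquitin from FANCD2, was at 3.17 and 3.39 at 0 h, 4.20 and 3.75 at 48 h and 3.20 and 3.58 at 72 h. Fbxo30, an F-box protein, was at 4.83 and 4.59 at 0 h, 5.93 and 5.75 at 48 h and 4.70 and 4.86 at 72 h. All 6 genes were thus highest at 48 h among the untreated groups of either age.

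**Figure D1:**
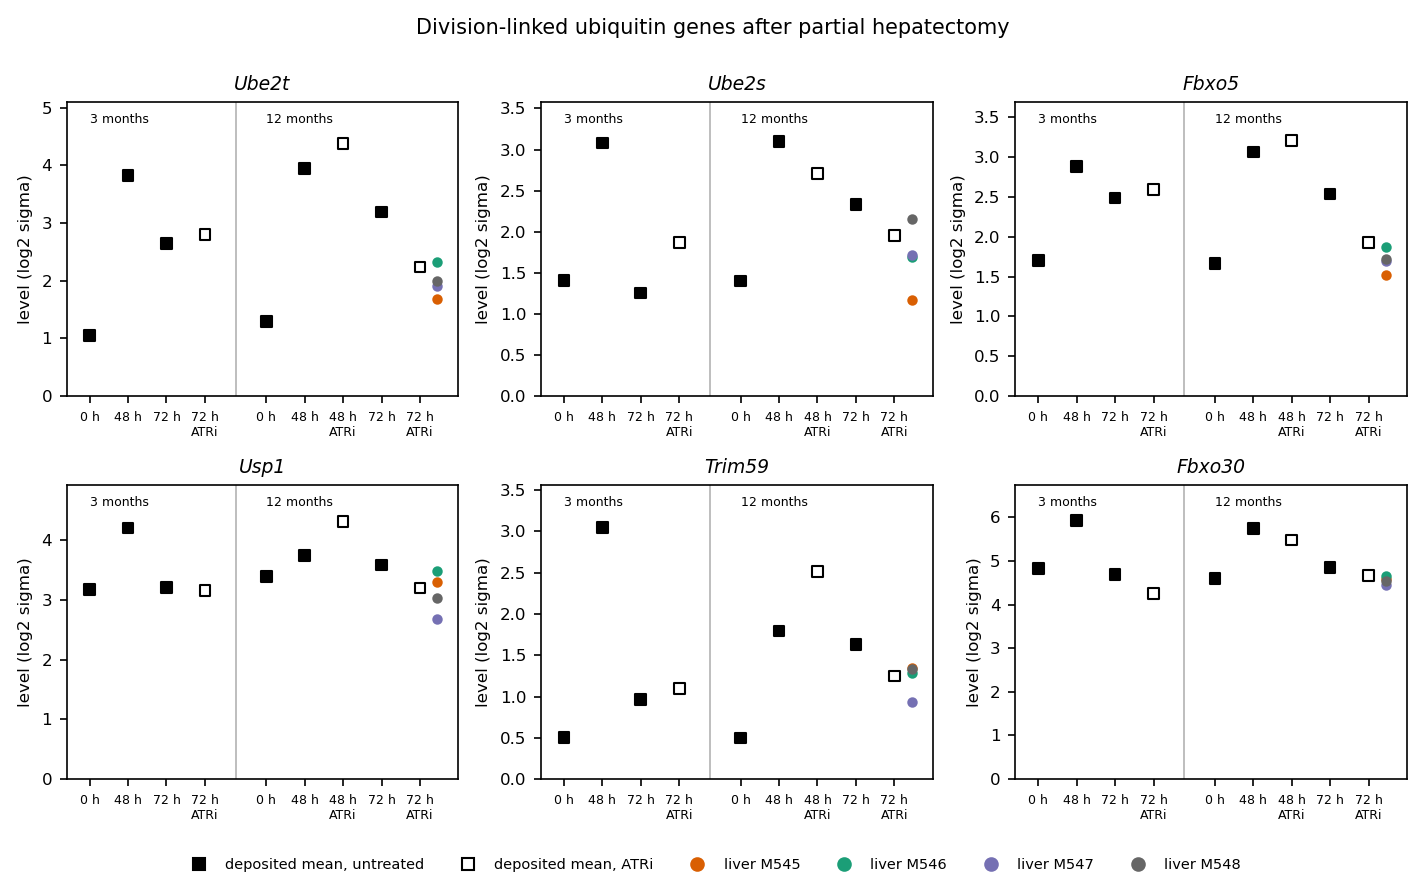
Deposited mean level (log2 sigma) of 6 members linked to cell division in each of the 9 groups, as squares (filled untreated, open ATRi), with livers M545 to M548 as coloured points beside the last group. Each of the 6 has its highest untreated mean at 48 h in both ages, Ube2t at 3.82 and 3.94.

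The cell division list held 14 genes, of which 8 were measured, and was chosen with earlier results of these data known. At 48 h 6 of the 8 were higher by 1 or more at 3 months (median difference 1.14, against -0.09 for all entries) and 5 at 12 months (1.23, against -0.02). From 48 h to 72 h the list's median was -1.09 at 3 months, with 4 of 8 lower by 1 or more, and -0.50 at 12 months, with none lower by 1 or more. The other 2 measured members were Trim37, a ligase known for limiting centriole number (2.32, 2.17 and 2.24 at 3 months, 2.02, 2.43 and 1.97 at 12 months), and Rnf26, a membrane-bound RING ligase (1.24, 1.41 and 1.48, then 1.56, 1.34 and 1.82). The 10 measured cycling cell markers of 12 listed had a summed level of 5.13 at 0 h in both ages, 9.21 and 8.84 at 48 h, and 7.75 and 8.25 at 72 h. None of them had a mean level below 1, and their part in the members' differences was not tested.

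Among all members, 2 were higher and 9 lower by 1 or more at 72 h than at 48 h in 3-month livers (background 1.61% and 3.04%). The lowest were Trim59 (-2.09), Ube2s (-1.82), Trim39 (-1.45), Fbxo30 (-1.24) and Ube2t (-1.18), and the 2 higher were Rnf125 (1.41) and Fbxo21 (1.10). In 12-month livers 5 were higher and 1 lower (background 3.32% and 1.89%). The higher ones were Trim30a (1.63), Fbxl17 (1.30), Rnf169 (1.20), Trim34a (1.19) and Trim14 (1.15), and the lower 1 was Trim39 (-1.03). Centring moved that split to 7 higher and none lower, and the share of higher entries among all past 1 from 63.7% to 77.1%.

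Members linked to metabolism and the clock differed in both directions. Fbxo21, an F-box substrate receptor on chromosome 5 (117976730 to 118010201), was at 5.197 at 0 h, 3.22 at 48 h, 4.32 at 72 h and 4.23 at 72 h with ATRi in 3-month livers. In 12-month livers it was at 4.46, 3.74 and 3.92 at the 3 times, 3.60 at 48 h with ATRi and 2.64 at 72 h with ATRi, the lowest of its 9 means. The 4 livers of that group were at 2.12, 3.02, 2.67 and 2.52, all below every other deposited mean of the gene. Fbxo32, the F-box protein atrogin-1 that rises in fasting muscle, was at 2.18 and 2.05 at 0 h and between 1.16 and 1.78 in all later groups.

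Usp2, a protease whose mRNA follows the circadian clock, was higher at 48 h than at 0 h by 1.21 at 3 months (2.27 to 3.48) and 1.68 at 12 months (1.73 to 3.41). It was at 3.03 and 2.93 at 72 h, and at 2.52 with ATRi at 12 months. Other clock members included Fbxl21, a receptor that acts on cryptochromes, and Fbxw11, which acts on period proteins. At 3 months Fbxl21 was at 3.60, 2.83 and 3.29 over the 3 times, and at 12 months at 3.64, 3.34 and 3.16. The time of day of sampling is not given by the labels. Of the list of fasting, lipid and sterol members, 8 of 10 were measured, Rnf139 only in the joined entry Rnf139--Tatdn1. From 0 h to 48 h it had 1 member higher (Usp2) and 1 lower (Fbxo21) at 3 months, and 1 higher (Usp2) and none lower at 12 months.

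Some members of innate immunity were highest in 12-month livers at 72 h, without and with ATRi. Trim30a, an interferon-induced Trim on chromosome 7 (104409025 to 104465193), had means between 1.56 and 2.11 in 7 groups, 3.19 in untreated 12-month livers at 72 h and 3.35 with ATRi. The 4 ATRi livers were at 2.19, 2.77, 4.29 and 2.61, so M547 was highest and M545 was just above the means of those 7 groups. Trim30d had means from 1.44 to 2.12 in 7 groups, 2.49 in untreated and 3.14 in ATRi 12-month livers at 72 h. Its 4 livers were at 2.15, 2.85, 3.97 and 1.84, with M547 again highest.

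Trim12c, a neighbour of these genes, had means from 3.06 to 3.64 in 7 groups and 3.83 and 3.46 in untreated and ATRi 12-month livers at 72 h. Its livers were at 2.93, 2.71, 4.31 and 2.43. Trim34a was lower after hepatectomy in 3-month livers, from 2.59 at 0 h to 1.49 at 48 h and 1.91 at 72 h. In 12-month livers it was at 2.30, 1.55 and 2.74, and at 1.71 with ATRi at 72 h, where the 4 livers were at 1.67, 1.53, 2.30 and 1.56. All 4 were below the untreated mean.

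The 2 Rnf ligases of the RNA sensor RIG-I had another order over the groups. Rnf125, which marks RIG-I for destruction, was at 3.12 at 0 h, 0.94 at 48 h and 2.35 at 72 h in 3-month livers and at 2.04, 1.33 and 1.87 in 12-month livers. With ATRi at 72 h and 12 months its mean was 3.15 and the livers were at 2.21, 2.08, 3.78 and 4.08, in 2 pairs; the difference of 1.28 from untreated livers did not pass the test. Rnf135, or Riplet, which activates RIG-I, was at 5.15, 4.74 and 4.05 in 3-month and 4.96, 4.75 and 4.96 in 12-month untreated livers. It was at 4.42 with ATRi at 72 h and 3 months and at 3.77 with ATRi at 72 h and 12 months, where the livers were at 3.70, 4.003, 3.62 and 2.84.

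**Figure D2:**
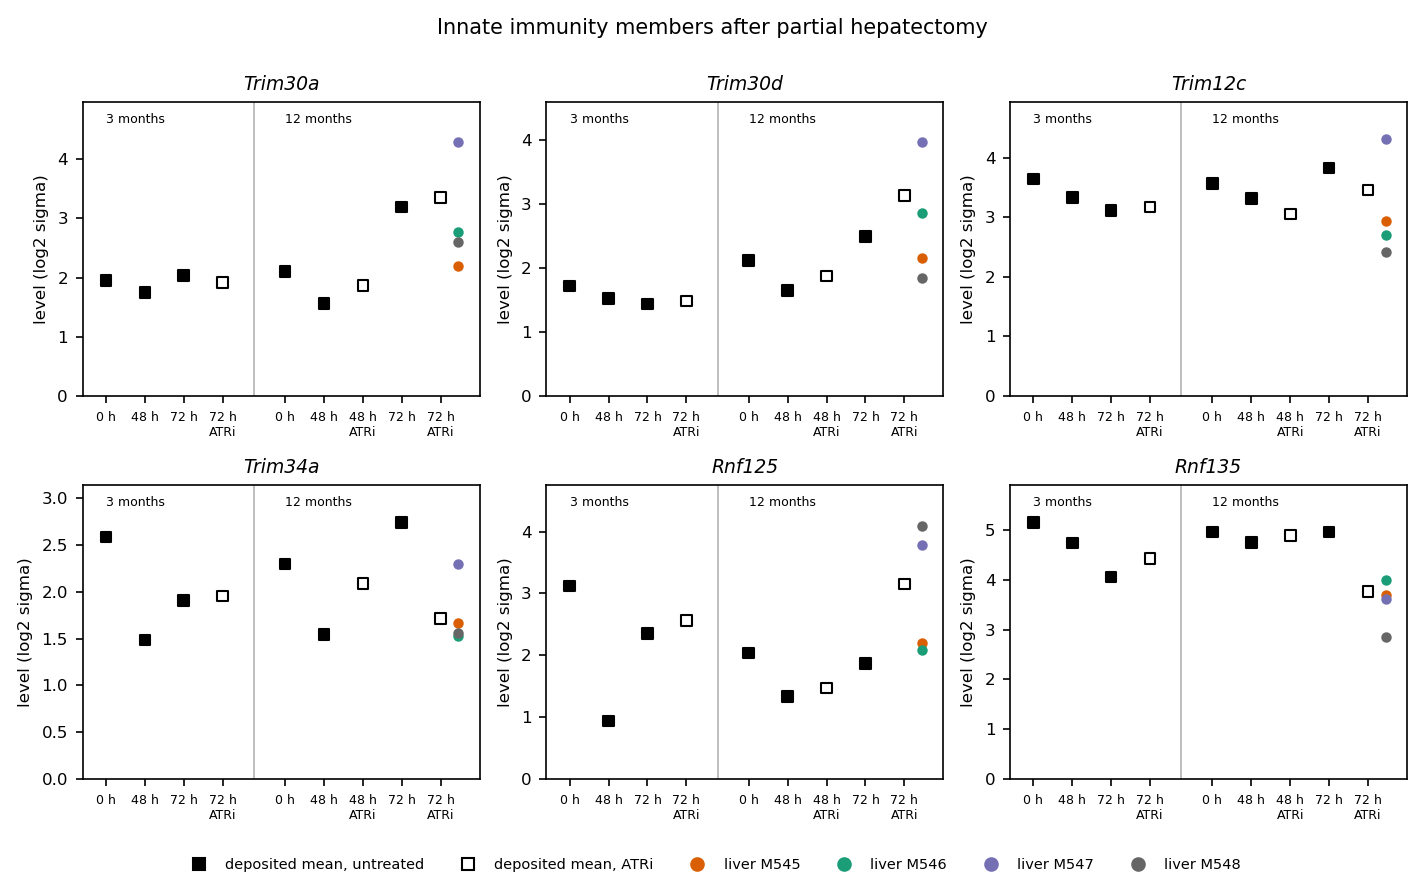
Deposited mean level (log2 sigma) of 6 innate immunity members in each of the 9 groups, as squares (filled untreated, open ATRi), with livers M545 to M548 as coloured points beside the last group. Trim30a and Trim30d have their 2 highest means in 12-month livers at 72 h, and liver M547 is the highest of the 4 for Trim30a, Trim30d, Trim12c and Trim34a.

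Of the list of interferon and innate immunity members 14 of 16 were measured. This list too was chosen with earlier results of these data known, so its counts are no independent support for a shared response. From 48 h to 72 h in untreated 12-month livers 14 of 14 differed upward (median 0.55, against -0.10 for all entries), 3 of them by 1 or more. At 3 months the same interval gave 8 of 14 upward, with a median of 0.07. The 12-month livers were above the 3-month livers at 72 h in 12 of the 14 (median 0.65, against -0.03 for all entries), 2 of them by 1 or more. Others on the list were Trim14 (3.13 at 48 h and 4.28 at 72 h at 12 months), Trim21, a cytosolic antibody receptor (3.50 and 4.18), Trim25, a further ligase of RIG-I (4.72 and 5.24), and Ube2l6, the E2 of the ubiquitin-like ISG15 (5.63 and 6.28).

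Genes of the interferon response moved with these members. Of 20 such markers 16 were measured, none with a mean level below 1, and their summed level was between 7.81 and 8.15 in 7 groups, 9.49 in untreated and 9.16 in ATRi 12-month livers at 72 h. Over the 4 ATRi livers it was 8.47, 9.0, 9.91 and 8.44, with M547 highest as for the Trim cluster. Macrophage markers had a summed level of 7.72 to 8.60 in the same 7 groups, 9.70 in untreated and 9.56 in ATRi 12-month livers at 72 h. Over the 4 livers it was 10.06, 9.13, 9.35 and 9.28, so that M545 and not M547 was highest. Neutrophil markers (8 of 12 measured, S100a8 and Ly6g with mean levels below 1) were at 3.70 to 5.56, then 6.56 and 7.01. The part of these cells in the members' differences was not tested.

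Between the ages the members differed little before hepatectomy. At 0 h none was higher and 1 lower by 1 or more in 12-month than in 3-month livers (background 0.872% and 0.396%). That member was Rnf125 (-1.08), followed by Trim13 (-0.80), Rnf169 (-0.79), Fbxo21 (-0.74) and Trim26 (-0.69). At 48 h none was higher and 1 lower (background 0.782% and 0.576%), Trim59. At 72 h 5 were higher and none lower (background 1.97% and 0.773%): Trim30a (1.16), Trim27 (1.13), Trim47 (1.10), Ube2s (1.07) and Trim30d (1.06). Trim27, a RING ligase, was at 2.83 in 3-month and 3.96 in 12-month untreated livers at 72 h but at 3.73 and 4.24 at 0 h. Trim47 was at 1.79 and 2.90, from 2.35 and 2.72 at 0 h. In both genes the 3-month livers were lower at 72 h than at 0 h, and the 12-month livers differed by -0.28 (Trim27) and 0.18 (Trim47).

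ATRi left the members close to the untreated livers in 2 of the 3 settings. At 48 h and 12 months no member differed by 1 or more in either direction (background 0.324% higher and 0.252% lower), and the range ran from Rnf151 (-0.68) to Trim59 (0.72). At 72 h and 3 months none did either (0.054% and 0.126%), with a range from Rnf225 (-0.59) to Fbxo45 (0.87). The medians over the members were -0.03 and 0.01.

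At 72 h and 12 months the spread was wider. The members' median was 0.17, against 0.08 for all entries, with 149 members above 0 and 76 below. Counted as in the other settings, 25 members were higher and 3 lower by 1 or more, beside 7.55% and 0.84% of all entries. The limma test called 27 members higher and 6 lower with ATRi, beside 9.04% and 2.38% of all entries. Their adjusted p-values were between 0.0429 and 0.0496, close under the threshold of 0.05, and at an unadjusted p under 0.05 the count was 97 of 225 (3813 of 11119). The count was none with the livers used as deposited, with equal weights, and without M545, without M547 or without M548. It was 68 without M546, 10 (6 higher and 4 lower) with all values centred on the median, and 19 among entries with a mean level of 2 or more. Centring took the share of higher members among those called from 81.8% to 60.0%, and of all entries called from 79.1% to 59.3%. These changes are therefore described with the level in each liver.

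By family the calls fell as follows. Of the 30 Ube2 genes 9 rose and 1 fell, with a median difference of 0.58. Among the 5 Ube3 and Ube4 ligases 2 rose, among the 7 cullins 2 rose, and none in either family fell. Of the 55 Rnf genes 7 rose and 2 fell, of the 43 F-box genes 3 rose and 2 fell, of the 43 Trim genes 2 rose and 1 fell, and of the 42 Usp genes 2 rose. No test compared the families with each other.

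**Figure D3:**
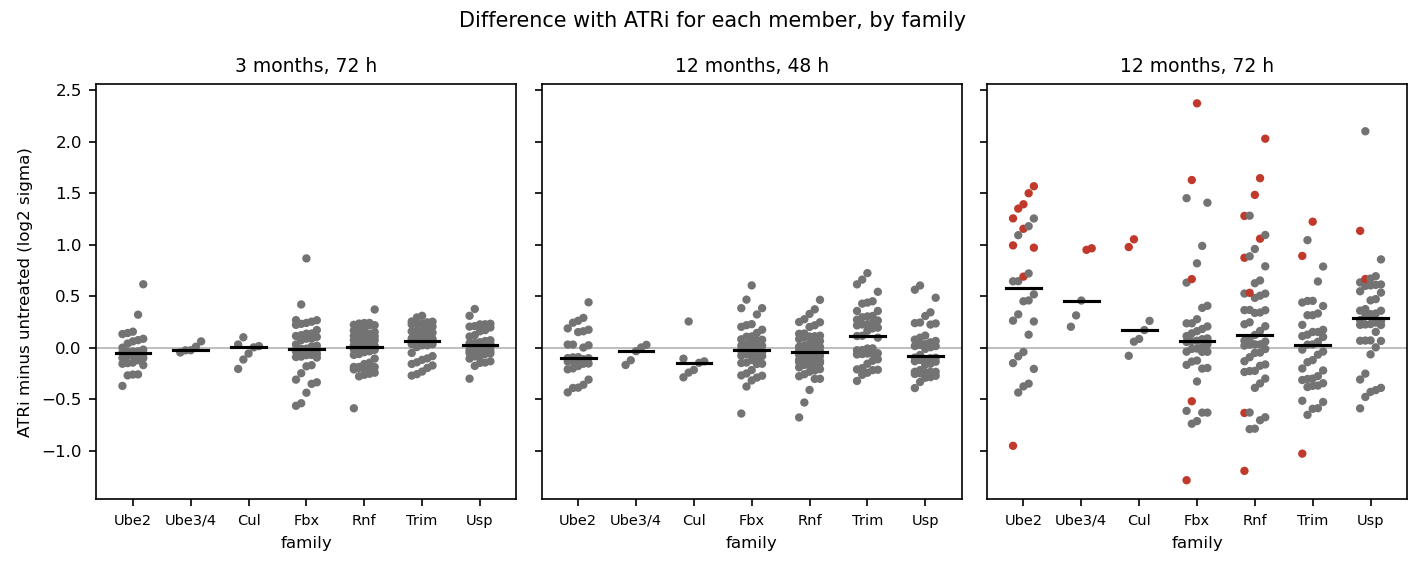
Difference between ATRi and untreated livers (log2 sigma) of each of the 225 members, by family, in 3 settings; each point is 1 gene, the bar is the family median, and red marks the 33 members that passed the limma test, which was run for 12 months and 72 h only. The points spread from -0.59 to 0.87 at 3 months, from -0.68 to 0.72 at 12 months and 48 h, and from -1.28 to 2.37 at 12 months and 72 h.

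Some members below that are on no role list are named because they passed the test, and were picked after their values were seen. Ube2d2a and Ube2d3, broad E2s that serve many RING ligases, had untreated 72 h means of 1.37 and 3.56 in 12-month livers and ATRi means of 2.76 and 4.91. The 4 livers of Ube2d2a were at 2.91, 2.01, 2.82 and 3.19 and those of Ube2d3 at 5.18, 3.92, 4.89 and 5.002. In both genes all 4 were above the untreated mean and M546 was the lowest. Ube2l3, the E2 of many HECT and RING-between-RING ligases, went from 1.10 to 2.60, with livers at 2.77, 1.54, 2.38 and 2.86. Ube2n, which builds lysine-63 chains together with Ube2v1 or Ube2v2, went from 1.501 to 2.76, with livers at 2.99, 2.20, 3.04 and 3.26. Its partner Ube2v2, whose mean level over the groups was below 1, rose by 0.69 (SE 0.16, adjusted p = 0.0457). The part of that low level in its difference was not tested.

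Ube2e2, a conjugase on chromosome 14 (18573575 to 18894267), had means from 0.80 to 1.16 in 7 groups, 1.91 in untreated 12-month livers at 72 h and 3.48 with ATRi. The 4 livers were at 3.15, 2.80, 3.50 and 3.48, all above every other deposited mean. The increase of 1.57 (SE 0.21) had an adjusted p of 0.0429. Fbxl17, an F-box receptor known for the quality control of BTB proteins on chromosome 17 (63057452 to 63500017), had the same order, with 0.98 to 1.56 in 7 groups, 2.37 in untreated 12-month livers at 72 h and 3.99 with ATRi. Its livers were at 3.999, 3.15, 3.82 and 3.93. It rose by 1.63 (SE 0.24, adjusted p = 0.0429), and over the alternatives the adjusted p ran from 0.0079 to 0.35.

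Rnf217, a RING-between-RING ligase on chromosome 10 (31493193 to 31609184), had means from 1.02 to 1.72 in 7 groups, 2.13 in untreated 12-month livers at 72 h and 4.16 with ATRi. The livers were at 3.91, 2.47, 4.37 and 4.49, so that M546 was closer to the untreated mean than to the other 3. The increase was 2.03 (SE 0.47, adjusted p = 0.0463). Rnf11, a small RING protein that binds HECT ligases, went from 1.61 to 3.25, with livers at 3.09, 2.17, 3.32 and 3.20. The joined entry Fbxo22--Nrg4 went from 3.31 to 5.68, with livers at 6.02, 4.20, 5.90 and 6.02, and its reads cannot be divided between Fbxo22 and its neighbour.

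The cullins Cul1, the scaffold of F-box ligases, and Cul3, the scaffold of BTB-protein ligases, rose by 1.05 (SE 0.22, adjusted p = 0.0434) and 0.98 (SE 0.19, adjusted p = 0.0434). Cul1 was at 4.10 in untreated 12-month livers at 72 h and at 5.22, 4.72, 5.12 and 5.49 in the 4 ATRi livers. Cul3 was at 3.08 and at 3.86, 3.51, 3.82 and 3.99. Ube3a, a HECT ligase known from Angelman syndrome, went from 2.86 to 3.81, and Ube4b, a U-box ligase that extends chains, rose by 0.96. Rnf138rt1, a near copy of Rnf138, is among the 27, but its untreated mean of 0.049 is the lowest value of that table, and the lowest values of the tables themselves run from 0.049 to 0.548; the part of these floors in its difference was not tested. Usp9x and Usp53 were the 2 Usp genes that rose, by 0.67 and 1.13. Usp6nl, the Rab GTPase-activating protein, differed by 2.10 and narrowly missed the test (adjusted p = 0.05), with livers at 4.06, 2.38, 4.06 and 4.84 against an untreated mean of 1.96.

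The 6 members that fell were Fbxo21 (-1.28, SE 0.24, adjusted p = 0.0429), Rnf135 (-1.19), Trim34a (-1.03), Ube2t (-0.95), Rnf26 (-0.63) and Fbxw17 (-0.52). All 4 livers were below the untreated mean in each of these 6. For Fbxo21, Rnf135, Trim34a and Ube2t the adjusted p over the alternatives had lowest values of 0.015, 0.029, 0.041 and 0.017, and 0.35 as the highest. All 8 measured cell division members had a difference below 0, from -0.95 to -0.20, of which Ube2t and Rnf26 passed. In the same comparison at 3 months 5 of the 8 were above 0, with a median of 0.09. With ATRi at 72 h and 12 months 5 of the 10 measured cycling cell markers were above 0 and 5 below. Their median was -0.06, and none passed.

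**Figure D4:**
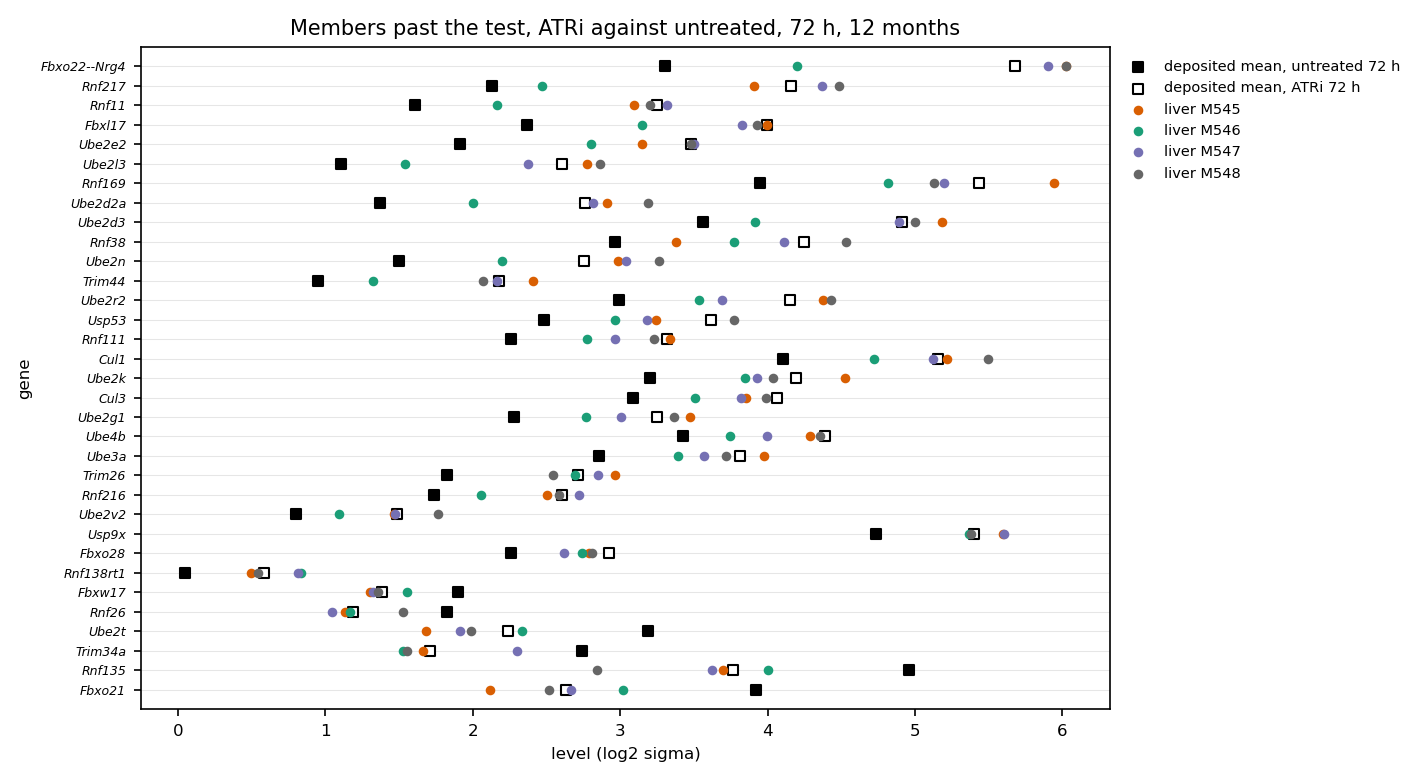
Level (log2 sigma) of the 33 members that passed the limma test for ATRi against untreated livers at 72 h and 12 months, ordered by difference; black squares are the untreated mean, open squares the ATRi mean and coloured points the 4 ATRi livers. For the 27 that rose every liver lies to the right of the black square, and M546 is the lowest of the 4 in 23 of them.

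The 4 livers did not differ from the untreated mean to the same degree. In all 27 members that rose each liver was above the untreated mean, and in all 6 that fell below it, both as deposited and when shifted to the group mean. Among the 27, M546 was the lowest liver in 23, against 103 of all 225 members. Each liver was also set against the mean of the other 3. Over all members the median deviation was -0.13 in M546 and between 0.01 and 0.07 in the other 3. In M546 12 members were 1 or more below the mean of the other 3. Over all 225 members 93 had all 4 livers above the untreated mean and 50 had all 4 below. As the same livers gave the test, these counts are no independent support for it.

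The list of DNA damage and replication fork members held 20 genes, all measured, though Usp16 only in the joined entry Usp16--Cct8. With ATRi at 72 h and 12 months Ube2n and Rnf169 rose and Ube2t fell, and the list's median was 0.20. Rnf169, which binds ubiquitin marks at double-strand breaks, lies on chromosome 7 (99920254 to 99980448). Its means were 2.99, 2.83, 3.57 and 3.41 (ATRi) at 3 months and 2.20 at 0 h, 2.75 at 48 h, 2.81 at 48 h with ATRi, 3.95 at 72 h and 5.43 at 72 h with ATRi at 12 months. The 4 livers were at 5.94, 4.82, 5.196 and 5.13, all above every other deposited mean. The increase with ATRi was 1.48 (SE 0.28, adjusted p = 0.0429).

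Rnf8 and Rnf168, the ligases that lay down the marks Rnf169 binds, did not pass. Rnf8 was at 3.65 and 3.02, with livers from 2.82 to 3.15, and Rnf168 at 3.69 and 2.99, with livers from 2.65 to 3.22. Their livers were all below the untreated mean, the opposite side to those of Rnf169. Ube2a and Ube2b, the near-identical E2s of Rad18 that mark the clamp of stalled forks, were at 6.54 and 6.09 in untreated and 6.19 and 6.55 in ATRi livers. Cul4a and Cul4b, scaffolds of ligases that destroy replication factors, were at 5.09 and 3.49 in untreated and 5.35 and 3.66 in ATRi livers. Usp1 was at 3.58 and 3.19. In the untreated time course the list's medians lay between -0.18 and 0.01 over the 6 comparisons of times, and Ube2t was the highest of the 20 in each comparison with 0 h.

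Members with long introns had higher differences with ATRi at 72 h and 12 months than those with short ones. Of the members 217 matched 1 gene model and were divided by total intron length into 72 with up to 18.6 kb, 72 between, and 73 with 45.0 kb or more. The median difference was -0.11, 0.19 and 0.55 in the shortest, middle and longest group. In the same order 1, 7 and 18 members rose and 5, 1 and 0 fell. Of the 4481, 2914 and 3014 matched entries in these length ranges 147, 184 and 632 rose and 203, 43 and 6 fell. Over all 10409 matched entries the medians were -0.08, 0.07 and 0.38, so the order was not peculiar to ubiquitin genes. Across the members, which share their libraries and are not replicates, Pearson's r with the logarithm of intron length was 0.39 and Spearman's rho 0.52. Over all entries they were 0.35 and 0.41.

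The 4 ATRi livers, shifted to their group mean, were each set against the same untreated mean. In each the longest group had the highest median, 0.78 in M545, 0.33 in M546, 0.60 in M547 and 0.57 in M548. With ATRi at 72 h and 3 months the medians were 0.07, 0.02 and -0.03, with r = -0.10. The order was also seen without ATRi: from 48 h to 72 h at 3 months the medians were -0.31, -0.10 and 0.17 (r = 0.44), and at 12 months -0.14, -0.10 and 0.01 (r = 0.25). It was the reverse from 0 h to 48 h at 3 months, with 0.04, -0.08 and -0.20 (r = -0.23), and with ATRi at 48 h and 12 months, with 0.11, -0.03 and -0.10 (r = -0.16).

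**Figure D5:**
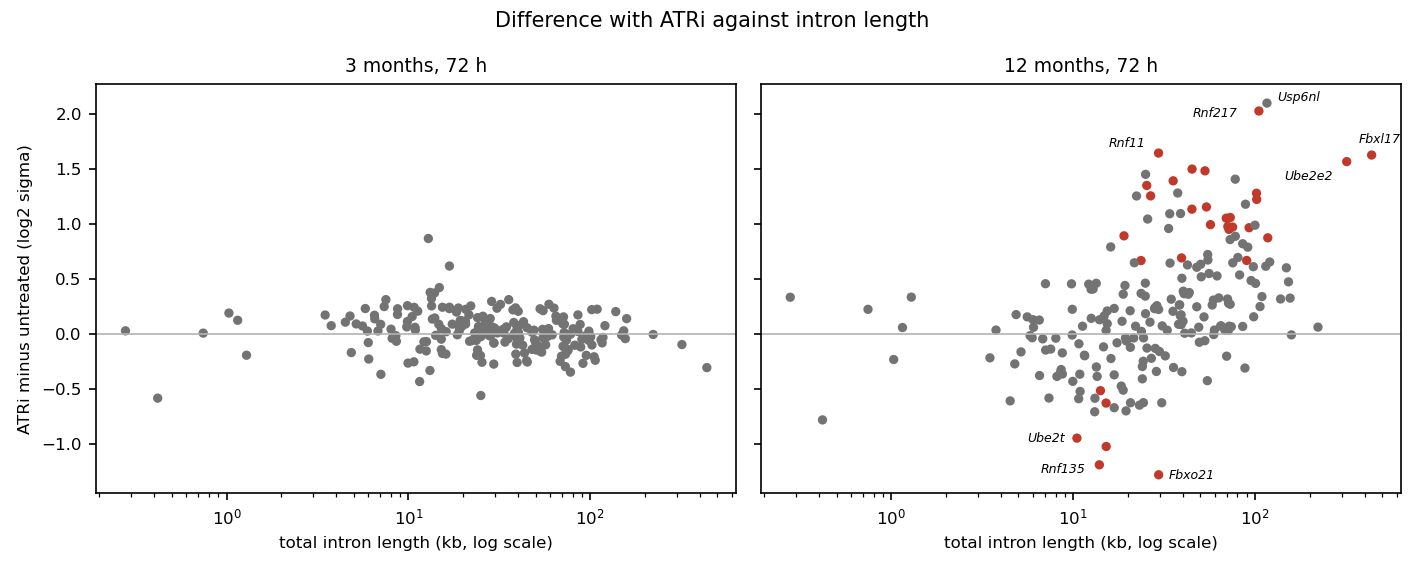
Difference between ATRi and untreated livers at 72 h (log2 sigma) against total intron length (kb, log axis) for the members with introns, at 3 months (left) and 12 months (right, red where the limma test was passed). At 12 months the members past 45.0 kb have a median of 0.55, and at 3 months -0.03.

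The other 3 tested comparisons set the same 4 ATRi livers against other means, so they share their livers and repeat each other in part. Against ATRi livers of 3-month mice at 72 h, 51 members were higher and 15 lower at 12 months (background 18.3% and 9.96%). Against ATRi livers at 48 h of the same age 53 rose and 38 fell (19.4% and 17.8%), and against 0 h livers of the same age, which include the same 4 mice, 70 rose and 45 fell (25.6% and 22.5%). Without M547 the 3 counts were 19, 59 and 78 in place of 66, 91 and 115. The count of 66 was 39 without M545 and 25 without M548, none with equal weights, and 42 among entries with a mean level of 2 or more. Centring took the share of higher members in it from 77.3% to 67.2%. With equal weights the counts of 91 and 115 were 21 and 13.

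In all 4 tested comparisons 24 members were higher and Fbxo21 was lower, beside 7.58% and 1.29% of all entries. Since the 4 comparisons use the same ATRi livers, this overlap is no sign of stability, and with equal weights no member passed in 2 of them. The largest values against 0 h were those of Rnf169 (3.23, SE 0.24, adjusted p = 0.000775), Fbxo22--Nrg4 (3.21, SE 0.40), Rnf217 (2.95, SE 0.41), Fbxl17 (2.84, SE 0.21) and Usp6nl (2.78). The lowest were Fbxo21 (-1.83, SE 0.21, adjusted p = 0.00155), the joined entry Fbxl15--Cuedc2 (-1.45), Rnf34 (-1.34), Trim7 (-1.30) and Rnf135 (-1.19). From 48 h to 72 h with ATRi Ube2t fell by 2.15 (SE 0.22, adjusted p = 0.0035), and 6 of the 8 measured cell division members fell. Against 3-month ATRi livers the ends were Fbxo22--Nrg4 (2.96) and Fbxo21 (-1.60, SE 0.24, adjusted p = 0.00913).

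The difference between the ages in the ATRi effect at 72 h was tested as an interaction. No member passed, and 1 of the 11119 entries did (0.00899%). At an unadjusted p under 0.05 there were 77 members and 2708 entries. The members' median was 0.16, against 0.08 for all entries, with Fbxo22--Nrg4 (2.91), Rnf217 (2.24), Usp6nl (2.18), Fbxo31 (2.01) and Fbxl17 (1.94) at the top. At the bottom were Rnf135 (-1.56), Fbxo21 (-1.20), Ube2t (-1.11), Trim34a (-1.07) and Ube2s (-0.99). Without M546, 29 members passed, 23 with a higher and 6 with a lower effect at 12 months. An effect of ATRi that differs by age is thus not shown for any member with all 4 livers. Fbxo31, an F-box protein that acts on cyclin D1 after DNA damage, had livers at 4.26, 4.05, 4.99 and 6.02 and did not pass in either comparison.

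Some Ube2 genes carry ubiquitin-like proteins, among them Ube2f (NEDD8) and Ube2l6 (ISG15). Ube2l6 was at 5.48, 6.01 and 6.03 at 0 h, 48 h and 72 h at 3 months and at 5.40, 5.63 and 6.28 at 12 months. Ube2f was at 2.31 in untreated and 3.40 in ATRi livers at 72 h and 12 months, with livers at 3.12, 2.56, 3.84 and 3.63. Neither passed the test for that comparison.

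Members also differed in how far they ranged over the 9 means. The widest ranges in their families were those of Fbxo22--Nrg4 (3.41), Ube2t (3.33), Rnf169 (3.23), Usp6nl (2.78), Trim59 (2.55), Cul1 (1.89) and Ube3a (1.70). Of these 7, 5 had their highest mean in the ATRi livers of 12-month mice at 72 h, whereas Ube2t and Trim59 were highest at 48 h. The family medians of the range were between 0.50 (Ube3 and Ube4) and 0.98 (Ube2). In 12 members every group mean was below 1.

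Of 137 other genes of the ubiquitin pathway fixed in lists, 107 were measured. With ATRi at 72 h and 12 months 13 rose and 2 fell (median 0.18), beside 9.04% and 2.38% of all entries, shares near those of the lists. The HECT and RING-between-RING ligases had 7 of 18 higher (median 0.70), among them Nedd4l (2.43), Arih1 (1.40) and Arih2 (1.29). Of 25 other RING ligases 2 rose, of 22 other proteases 3 rose, of 9 subunits and activators of the anaphase-promoting complex 1 rose, and of 7 E1 enzymes and 7 COP9 signalosome subunits none passed. Keap1, the Cul3 receptor of Nrf2, fell by 0.93. From 0 h to 48 h 8 of the 107 were higher by 1 or more and none lower at 3 months (3.76% and 2.67% of all entries), and 6 were higher and 1 lower (Birc3, -1.37) at 12 months (3.26% and 1.85%). Among the higher were Dtl, a Cul4 receptor of replication factors (1.96 and 2.31), and Uhrf1, a ligase of replicating chromatin (2.64 and 2.14).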

How the data were processed

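Polyadenylated RNA of 40 mouse liver samples in 9 groups was analysed, with some mice sampled at both 0 h and 72 h. The authors deposited log2 levels of a quantity named sigma (so named in the files) for 11119 entries in 12 tables; 8 groups have their mean only, and 1 has its mean and 4 single livers. The builds GRCm38 and mm10 come from the submitters' processing notes; aligner, counting, scaling and filters are not given in the sources used here. Depth is unknown, which limits what can be said of precision.

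The members and lists were chosen with earlier results of these data known. In comparisons of means, members at least 1 apart were counted. Comparisons with the 4 single livers were fitted with limma 3.58.1 in R 4.3.3 (trend and robust), each mean weighted by its mice, with Benjamini-Hochberg adjustment over all entries and a threshold of 0.05. The code was tested on simulated data. Named genes were the 5 highest and 5 lowest members of each comparison, the member with the highest level and that with the widest range in each family, and members of 6 role lists. Alternatives were deposited liver values, centring, equal weights, no trend or robust step, a mean level of 2 or more, a difference of 0.5, and each liver left out. Gene models were GENCODE M21 and promoters RefSeq, matched by symbol.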

Additional observations from a re-analysis of the deposited data

Results flagged for a closer look

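In 6 of 100 named members 1 of the 4 ATRi livers of 12-month mice at 72 h lay far from the other 3, by Dixon's gap test at the 95% level, which chance alone meets in about 1 in 20 groups. Cul4b, the cullin scaffold, was at 3.14 in M548 and between 3.52 and 3.56 in the others. The joined entry Fbxo22--Nrg4 was at 4.20 in M546 and between 5.90 and 6.02 in the others. Fbxo25, an F-box protein, was at 2.07 in M546 and between 1.80 and 1.84 in the others. Fbxo32, atrogin-1, was at 0.96 in M548 and between 1.24 and 1.27 in the others. Trim59 was at 0.93 in M547 and between 1.29 and 1.35 in the others. Trim68 was at 2.65 in M546 and between 1.52 and 1.69 in the others. Of the 6 genes 3 had M546 as the distant liver, 2 M548 and 1 M547.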

How the results depend on the processing

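Counted at a difference of 0.5 instead of 1, more members were past it. Between the ages at 0 h, 48 h and 72 h they were 15, 11 and 23 of 225. Of all entries 4.77%, 4.34% and 8.23% were higher and 4.84%, 3.87% and 6.65% lower. At 3 months the members were 52, 48 and 49 for 48 h against 0 h, 72 h against 0 h and 72 h against 48 h. Of all entries 10.48%, 8.53% and 10.79% were higher and 13.18%, 12.99% and 13.15% lower. For the same at 12 months the members were 27, 45 and 48. Of all entries 9.94%, 10.23% and 10.86% were higher and 8.71%, 10.18% and 14.49% lower. For ATRi at 48 h (12 months) and 72 h (3 months) the members were 10 and 5. Of all entries 3.72% and 1.52% were higher and 2.6% and 1.8% lower. With a mean level of 2 or more the age count at 48 h was 0 in place of 1. For ATRi against untreated livers at 72 h and 12 months the 33 members past the test were 0 with livers as deposited, 0 with equal weights, 10 when centred, 19 with a mean level of 2 or more, and 0 to 68 with 1 liver left out (68 without M546, 0 without each of the others). For 12 against 3 months with ATRi the 66 were 0 with equal weights, 42 with a mean level of 2 or more and 19 to 82 with 1 liver left out. The 91 for 72 h against 48 h with ATRi were 21 with equal weights and 59 to 105 with 1 liver left out, and the 115 against 0 h were 13 with equal weights and 78 to 117. The interaction had 0, and 0 to 29 with 1 liver left out (29 without M546). The causes were not tested. Of the named members' tested values 27 lost the call with equal weights, 8 with livers as deposited and 8, 10 and 9 without M545, M547 and M548, 11 gained it without M546, and none reversed. No paired analysis was possible because single livers were available for 1 group only, so mice used at both 0 h and 72 h could not be matched.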
